A study of Homo sapiens with 26 samples.

Results

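The NF-κB group described here held 10 genes, the 5 subunit genes NFKB1, NFKB2, RELA, RELB and REL and the feedback genes NFKBIA, NFKBIE, TNFAIP3, BIRC3 and TRAF1. They were chosen by name, with earlier results of these data known, and all 10 were found by Ensembl identifier among the 41078 genes of the deposited table. The messenger RNA of 26 single cell-derived cell lines (SCDCLs) was sequenced, with 1 library for each SCDCL and no replicate library. A spread between libraries is therefore one between SCDCLs, from which differences of culture and library preparation cannot be told apart. An SCDCL is a population grown from a single cell of a parental line, here of BxPC3 or Panc-1, both established lines of pancreatic ductal adenocarcinoma of which the submitters call the former classical-like and the latter basal-like. All were grown in the same medium, DMEM with high glucose and fetal bovine serum. The labels name gemcitabine for every library, whereas the methods describe it only for separate viability assays, and whether an SCDCL was resistant was not analysed here.

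The labels assigned 12 libraries to BxPC3 and 14 to Panc1, but SMAD4, a signal transducer of the TGF-β pathway that BxPC3 is known to lack, went against many labels. SMAD4 was at 0 to 0.0440 TPM (the abundance of a gene's transcripts relative to all transcripts of a library, corrected for their length) in 12 libraries, 5 labelled BxPC3 and 7 labelled Panc1, and at 28.1 to 52.2 TPM in the 14 others, 7 of each label. The libraries were therefore set out as 12 SMAD4-low and 14 SMAD4-expressing libraries, divided at 1 TPM, and where a label is used it is named as a label. Because the division was read from the data, the sets are described and no test was made between them. KRT8, an epithelial keratin, was at 298.4 to 781.2 TPM in the SMAD4-low and 703.7 to 4005 TPM in the SMAD4-expressing libraries. KRT18 was likewise higher at the median in the latter, and KRT19 in the former. In the same order of sets, CDH1 was at 90.8 to 197.7 and 0.338 to 7.74 TPM. EPCAM was at 239.2 to 423.7 and 7.49 to 25.5 TPM. VIM was at 1.42 to 73.2 and 3047 to 4526 TPM, whereas CDH2 overlapped, at 1.31 to 7.45 and 3.35 to 184.4 TPM. Of the 7 lymphoid and myeloid markers, 5 had a mean under 1 TPM in both sets, MS4A1 at 0 in every library, and the summed TPM of the 7, mostly CD14 and CD68, was 5.95 to 50.7 in the SMAD4-low and 44.6 to 141.9 in the SMAD4-expressing libraries. Its part in the results was not tested. Library totals ran from 27035724 to 34945608 estimated counts, and no library was a copy of another.

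NF-κB is a family of dimeric transcription factors. NFKB1 and NFKB2 encode precursors that are trimmed to DNA-binding subunits without an activation domain, whereas RELA, RELB and REL carry such a domain. In resting cells the IκB proteins, among them those encoded by NFKBIA and NFKBIE, hold the dimers in the cytoplasm until a kinase complex marks them for destruction. NF-κB then induces genes that shut it down again, NFKBIA and the ubiquitin-editing enzyme TNFAIP3, and others such as BIRC3, a ubiquitin ligase that protects from cell death, and TRAF1, an adaptor of TNF receptors. BIRC3 also takes part in keeping the kinase MAP3K14 low, which drives the second, NFKB2-dependent arm of the pathway. NF-κB is often active in pancreatic cancer cells.

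The 10-base κB consensus was searched on both strands in the 250 bases upstream of the RefSeq transcript starts (GRCh38.p14). The reason was that several genes of the group, though not all, are known as targets of NF-κB themselves. A table of 35116 such windows held a match in 5.21% of cases. The group had 14 windows from 8 genes, and 7 windows from 6 genes held a match. RELA, with 2 windows, and TRAF1, with 3, had none. The following stretches run up to the first annotated exon, and matches that lie whole within them are in capitals. They show windows with a match of NFKBIA, TNFAIP3, BIRC3 and NFKB2, which tended to run together among the SMAD4-low SCDCLs in the values given further on, and of NFKB1, which did not run with them. TRAF1, which ran with the former without a match, is not shown.
NFKBIA, chr14:35404750-35404999, minus strand: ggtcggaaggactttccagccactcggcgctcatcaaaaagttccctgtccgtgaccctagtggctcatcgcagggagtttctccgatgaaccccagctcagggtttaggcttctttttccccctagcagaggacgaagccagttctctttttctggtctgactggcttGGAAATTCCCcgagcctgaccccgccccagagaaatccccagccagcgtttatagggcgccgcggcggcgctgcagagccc
TNFAIP3, chr6:137867009-137867213, plus strand: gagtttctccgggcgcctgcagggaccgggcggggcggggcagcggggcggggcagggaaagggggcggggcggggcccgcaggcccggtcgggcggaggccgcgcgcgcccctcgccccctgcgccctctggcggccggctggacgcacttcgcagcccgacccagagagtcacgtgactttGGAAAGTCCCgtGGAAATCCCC
BIRC3, chr11:102317234-102317483, plus strand: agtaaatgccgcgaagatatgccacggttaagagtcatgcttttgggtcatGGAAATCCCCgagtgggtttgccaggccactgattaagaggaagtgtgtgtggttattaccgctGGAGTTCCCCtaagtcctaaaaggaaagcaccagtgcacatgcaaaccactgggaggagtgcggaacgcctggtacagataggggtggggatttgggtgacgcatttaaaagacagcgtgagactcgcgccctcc
NFKB2, chr10:102395455-102395692, plus strand: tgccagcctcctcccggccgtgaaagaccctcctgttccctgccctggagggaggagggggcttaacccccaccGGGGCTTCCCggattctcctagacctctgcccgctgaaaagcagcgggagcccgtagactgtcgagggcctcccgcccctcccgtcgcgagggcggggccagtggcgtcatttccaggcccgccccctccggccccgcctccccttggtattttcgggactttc
NFKB1, chr4:102501109-102501329, plus strand: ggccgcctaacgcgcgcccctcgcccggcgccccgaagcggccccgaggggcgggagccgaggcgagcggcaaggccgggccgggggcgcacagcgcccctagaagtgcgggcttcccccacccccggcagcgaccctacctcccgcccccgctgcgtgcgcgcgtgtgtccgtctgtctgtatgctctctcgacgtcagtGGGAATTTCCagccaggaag
Of all windows, 0.635% held 2 or more matches, where overlapping matches with different first bases were counted apart. In the group these were the windows of TNFAIP3, BIRC3 and REL, with 2 each, and 2 windows of NFKB2, with 3 and 2. The 2 matches of REL overlap, beginning 47 and 46 bases upstream, and are not separate sites. The same holds for 2 of the 3 matches of NFKB2, beginning 107 and 106 bases upstream. The other match of the printed NFKB2 window begins 21 bases upstream of the start and runs into the annotated exon. A match is a description of these letters and no evidence that a factor was bound there.

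All 10 genes were expressed in both sets, and the sets differed in which of them led. NFKB1 (ENSG00000109320, GRCh38 chromosome 4, 102501330 to 102617302) separated the sets completely. It had a lowest, median and highest level of 27.5, 46.3 and 55.6 TPM in the SMAD4-low libraries and of 12.97, 14.6 and 19.6 TPM in the SMAD4-expressing libraries, a median 3.18-fold higher in the former. It was the only gene of the 10 whose ranges did not overlap. Among 15569 genes with a mean of at least 1 TPM in either set, the ranges of 30.6% did not overlap, 15.1% higher in the SMAD4-low and 15.6% higher in the SMAD4-expressing libraries (1 of 10 in the group). In such bulk libraries, fewer cells with a transcript and less of it per cell cannot be told apart.

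**Figure D1:**
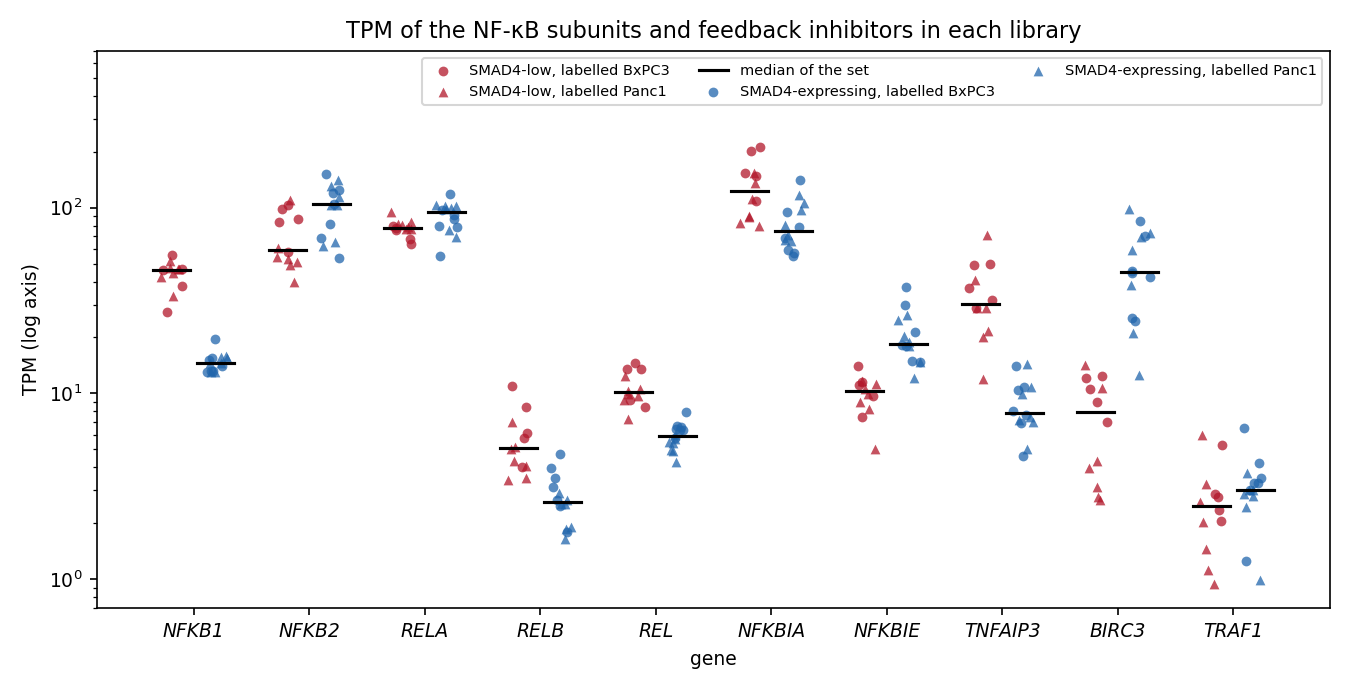
TPM of the 10 genes in each of the 26 libraries on a log axis, with SMAD4-low libraries in red, SMAD4-expressing libraries in blue, the label as the marker shape and the median of each set as a bar. NFKB1 is the only gene whose sets do not overlap, and BIRC3 and TNFAIP3 lie on opposite sides of each other in the sets.

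Of the other subunit genes, REL and RELB were higher at the median in the SMAD4-low libraries and NFKB2 and RELA in the SMAD4-expressing libraries. REL (ENSG00000162924, chromosome 2, 60881491 to 60931612), best known from lymphoid cells, was at 7.29, 10.1 and 14.5 TPM in the SMAD4-low libraries and at 4.26, 5.87 and 7.95 TPM in the SMAD4-expressing libraries, and 11 of 12 SMAD4-low libraries lay above every SMAD4-expressing library. RELB (ENSG00000104856, chromosome 19, 45001461 to 45038192), the usual partner of processed NFKB2, was low, at 3.41, 5.06 and 10.9 TPM and at 1.64, 2.61 and 4.72 TPM. NFKB2 (ENSG00000077150, chromosome 10, 102394110 to 102402524) was at 39.6, 59.5 and 110.2 TPM and at 53.3, 104.4 and 152.6 TPM, a median 1.76-fold higher in the SMAD4-expressing libraries with wide overlap. RELA (ENSG00000173039, chromosome 11, 65653599 to 65663090), the subunit that carries most of the activity in epithelial cells, was at 63.8, 78.2 and 94.5 TPM and at 54.7, 94.3 and 119.0 TPM, the smallest difference between the set medians in the group at 1.21-fold. The 5 subunit genes summed to 163.3 to 256.6 TPM and to 158.0 to 273.9 TPM, so the total overlapped. NFKB1 was 14.1 to 27.9% of this sum in the SMAD4-low and 5.12 to 9.63% in the SMAD4-expressing libraries.

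The feedback genes split likewise. TNFAIP3 (ENSG00000118503, chromosome 6, 137867214 to 137883314) was at 11.9, 30.4 and 70.9 TPM in the SMAD4-low libraries and at 4.62, 7.87 and 14.4 TPM in the SMAD4-expressing libraries, a 3.87-fold higher median in the former. All but 1 SMAD4-low library lay above every SMAD4-expressing library. NFKBIA (ENSG00000100906, chromosome 14, 35401079 to 35404749) was at 79.6, 123.7 and 213.0 TPM and at 54.9, 75.1 and 140.4 TPM. BIRC3 (ENSG00000023445, chromosome 11, 102317484 to 102339403) went the other way, with 2.68, 7.96 and 14.3 TPM in the SMAD4-low and 12.6, 45.1 and 97.9 TPM in the SMAD4-expressing libraries, a 5.66-fold higher median in the latter. NFKBIE (ENSG00000146232, chromosome 6, 44258166 to 44265788) was also lower in the SMAD4-low libraries, at 5.04, 10.3 and 13.97 TPM against 12.1, 18.5 and 37.2 TPM. For BIRC3 and for NFKBIE, 13 of 14 SMAD4-expressing libraries lay above every SMAD4-low library. TRAF1 (ENSG00000056558, chromosome 9, 120902393 to 120929173) was the lowest of the feedback genes in both sets, at 0.946, 2.48 and 5.96 TPM and at 0.984, 3.02 and 6.53 TPM, with nearly the same range.

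Ratios between genes of the same library, which do not depend on how libraries are scaled to each other, separated the sets in several cases. BIRC3 and TNFAIP3 overlapped between the sets as single genes, but BIRC3 was at 0.0925 to 0.326 times the TPM of TNFAIP3 in the SMAD4-low libraries and at 2.50 to 10.2 times in the SMAD4-expressing libraries. Of the ratios with NFKB1, which separated the sets by itself, that of NFKB2 to NFKB1 was 0.767 to 3.31 in the former, with NFKB1 above NFKB2 in 1 library, and 3.50 to 11.6 in the latter. RELA exceeded NFKB1 by 1.36 to 2.46 times and by 4.14 to 7.79 times. Of the IκB genes, NFKBIA exceeded NFKBIE by 7.15 to 20.1 times and by 2.13 to 6.66 times. The ratio of NFKBIA to RELA overlapped, at 0.958 to 2.98 and 0.645 to 1.69, as did that of RELA to RELB. These pairs were chosen after the levels were known.

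**Figure D2:**
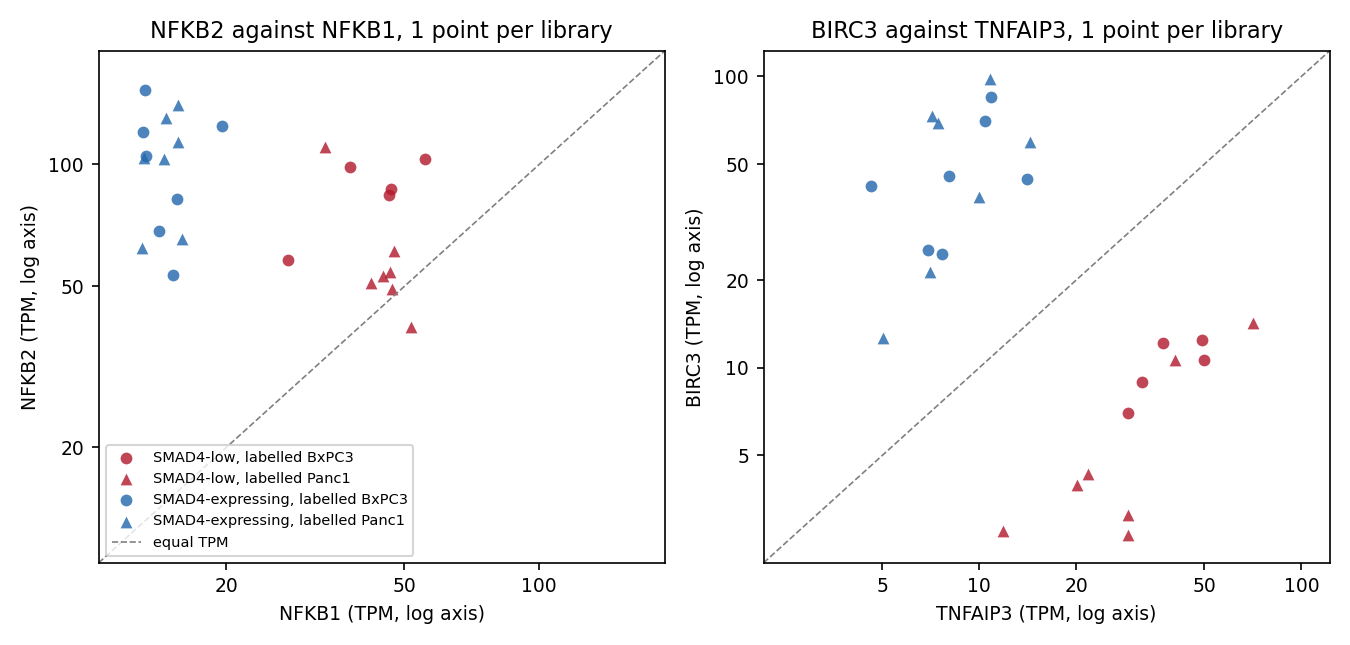
TPM of NFKB2 against NFKB1 (left) and of BIRC3 against TNFAIP3 (right) on log axes, 1 point per library, colored by SMAD4 set with the label as marker shape and a dashed line at equal TPM. In the right panel all SMAD4-low libraries lie below the line (ratios of 0.0925 to 0.326) and all SMAD4-expressing libraries above it (2.50 to 10.2).

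By median level NFKBIA led in the SMAD4-low libraries, followed by RELA, NFKB2, NFKB1, TNFAIP3, NFKBIE, REL, BIRC3, RELB and TRAF1. NFKB2 led in the SMAD4-expressing libraries, followed by RELA, NFKBIA, BIRC3, NFKBIE, NFKB1, TNFAIP3, REL, TRAF1 and RELB. Each gene overlapped in range with the next, and some neighbours in this order were not ordered alike within libraries. NFKBIE exceeded REL in 6 of 12 SMAD4-low libraries, RELA exceeded NFKB2 in 7 of 12, and RELA exceeded NFKBIA in 8 of 14 SMAD4-expressing libraries. BIRC3 exceeded NFKBIE in 14 of 14 SMAD4-expressing libraries.

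The rest of the pathway was counted in lists, which were also drawn up with earlier results of these data known. Of the 20 kinases and adaptors, 3 were higher without overlap in the SMAD4-low and 4 in the SMAD4-expressing libraries, close to the shares of all genes. MAP3K14, the kinase upstream of NFKB2 processing, showed the largest difference, at 2.16 to 10.6 TPM against 10.9 to 52.4 TPM. Of 12 other inhibitors and members of the IκB family, 2 were higher without overlap in the SMAD4-low and 4 in the SMAD4-expressing libraries. The shares of all genes were 15.1% and 15.6%. NFKBIZ, an inducible nuclear IκB protein, was at 49.4 to 312.3 TPM against 2.30 to 27.9 TPM, whereas NFKBIB, which encodes another cytoplasmic IκB protein, was at 11.7 to 25.6 TPM against 71.3 to 119.7 TPM. Of 16 receptors, 14 had a mean of at least 1 TPM in a set, and 7 of these were higher in the SMAD4-low libraries and 1, TNFRSF11A, in the SMAD4-expressing libraries, again beside 15.1% and 15.6% of all genes. LTBR, the lymphotoxin receptor that activates the NFKB2 arm, was at 171.6 to 248.2 TPM against 0.868 to 5.21 TPM. TNFRSF11A went the other way, at 0.398 to 2.16 TPM against 4.13 to 24.3 TPM. CD40 was also higher at the median in the SMAD4-expressing libraries but overlapped, at 0.734 to 12.7 TPM against 7.59 to 20.5 TPM.

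Of the 30 listed target genes, 27 had a mean of at least 1 TPM in a set, and 11 of these were higher without overlap in the SMAD4-low libraries against 1, the chemokine CCL2, in the SMAD4-expressing libraries, where the shares of all genes were 15.1% and 15.6%. IL1A, a cytokine that itself activates NF-κB, was at 118.8 to 288.3 TPM against 0 to 0.223 TPM. IL1B was at 61.0 to 275.8 TPM and at 0 to 0.680 TPM, and CXCL5, a neutrophil chemokine, was at 3.79 to 260.0 TPM and at 0 to 0.221 TPM. CCL2 was at 0 to 0.943 TPM and at 3.17 to 495.7 TPM. The summed TPM of the 30 targets overlapped, with 1147 to 4589 TPM in the SMAD4-low and 845.7 to 1902 TPM in the SMAD4-expressing libraries.

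How far the SCDCLs of a set differed from each other depended on the gene. The SD of log2(TPM + 1) was larger for BIRC3 than for 95.0% of the genes with a mean of at least 1 TPM in the SMAD4-low libraries (SD 0.78, n = 12) and 95.2% in the SMAD4-expressing libraries (SD 0.83, n = 14). BIRC3 covered a 5.34-fold range in the former and a 7.75-fold range in the latter. TNFAIP3 stood at the 92.1 percentile in the SMAD4-low libraries. In the same order of sets, TRAF1 stood at 87.7 and 80.2, NFKB2 at 82.2 and 81.0 and NFKBIA at 82.1 and 73.8. The subunit genes other than NFKB2 and RELB varied less than the median gene in both sets, in some cases only slightly less. RELA was among the most even genes of the SMAD4-low libraries, at the 3.59 percentile (SD 0.14), but stood at 49.1 in the SMAD4-expressing libraries (SD 0.29, a 2.17-fold range). NFKB1 stood at 42.9 and at 6.58, and REL at 43.6 and 18.7. Of the 10 genes, 7 varied more than the median gene in each set.

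The resamples of the reads that kallisto made within each library measured the error of counting and of assigning reads to transcripts. The SD between libraries exceeded the SD over resamples of a library by 40.0 times for BIRC3 in the SMAD4-expressing libraries and by 17.97 times for TNFAIP3 in the SMAD4-low libraries. RELB had the lowest factor in each set, 2.82 in the SMAD4-low and 1.59 in the SMAD4-expressing libraries. In the SMAD4-expressing libraries the factor was also low for NFKB1 (3.51), TNFAIP3 (4.22) and REL (4.49). The spread of RELB is therefore the least certain of the group.

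Within the SMAD4-low libraries, NFKB2, NFKBIA, TNFAIP3, BIRC3 and TRAF1 tended to be high or low in the same SCDCLs. These 5 genes were picked out after their values were seen. Library B3 had the lowest NFKB2, NFKBIA and TNFAIP3 of the set (39.6, 79.6 and 11.9 TPM), with BIRC3 at 2.76 and TRAF1 at 1.11 TPM. Library B4 had the highest NFKB2, TNFAIP3, BIRC3 and TRAF1 (110.2, 70.9, 14.3 and 5.96 TPM), with NFKBIA at 153.5 TPM. RELA was at 81.1 and 81.7 TPM in these libraries, and NFKB1 was lower in B4 (33.3 TPM) than in B3 (51.7 TPM). Both libraries were labelled Panc1.

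Over the 12 SMAD4-low libraries, the closest pair was NFKBIA and BIRC3, with a Pearson r of log2(TPM + 1) of 0.907 and a Spearman rho of 0.895 (permutation p = 0.00018 and 0.00027, two-sided). The p of r became 0.0873 when adjusted by the Benjamini-Hochberg method over 143740 relations, each gene of the group with every gene of a mean of at least 1 TPM. No relation of any gene passed an adjusted p of 0.05, so the pairs are given as unadjusted results. The number of permutations limits this adjustment: at the smallest p they can give, 1e-05, a rank of 29 among the relations is needed to pass, and 19 relations reached that p. The pairs named in this paragraph had larger p-values, so that limit did not set their adjusted p. NFKB2 and TNFAIP3 followed with r = 0.873 and rho = 0.909 (permutation p = 0.00011 and 7e-05, adjusted p of r 0.0832). TNFAIP3 and TRAF1 had r = 0.848 and rho = 0.860 (permutation p = 0.00056 and 0.00069, adjusted p of r 0.0999), and TNFAIP3 and BIRC3 had r = 0.826 and rho = 0.825 (permutation p = 0.00029 and 0.00154, adjusted p of r 0.0895). Of the 45 pairs, 11 had a positive r at an unadjusted permutation p under 0.05, against 8.83% of all relations, and none had a negative r at that level. All 10 pairs among these 5 genes were among the 11 except NFKBIA with TRAF1, and the others were NFKBIE with TRAF1 (r = 0.656) and NFKB1 with REL (r = 0.638).

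Without the 2 libraries farthest from the median of the first gene, NFKBIA and BIRC3 had r = 0.962, NFKB2 and TNFAIP3 r = 0.801, and TNFAIP3 and BIRC3 r = 0.776. NFKB1 and REL dropped to r = 0.328 without B4 and B26, so this relation rests on those libraries. Within the labels, with values centred on the mean of each label, NFKBIA and BIRC3 had r = 0.856 and NFKB2 and TNFAIP3 r = 0.883. The library total moved with some of these genes, since NFKB2 had r = -0.673 with it, NFKBIA -0.614 and BIRC3 -0.609 (permutation p = 0.0162, 0.0338 and 0.0374, adjusted p of 0.162, 0.187 and 0.187 over 20 relations). With the total regressed out, r was 0.848 for NFKBIA with BIRC3 and 0.880 for NFKB2 with TNFAIP3. The pair NFKB2 and NFKBIA dropped from r = 0.753 to 0.568 (permutation p = 0.0514), and to 0.590 within the labels, and 10 pairs instead of 11 had an unadjusted p under 0.05.

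**Figure D3:**
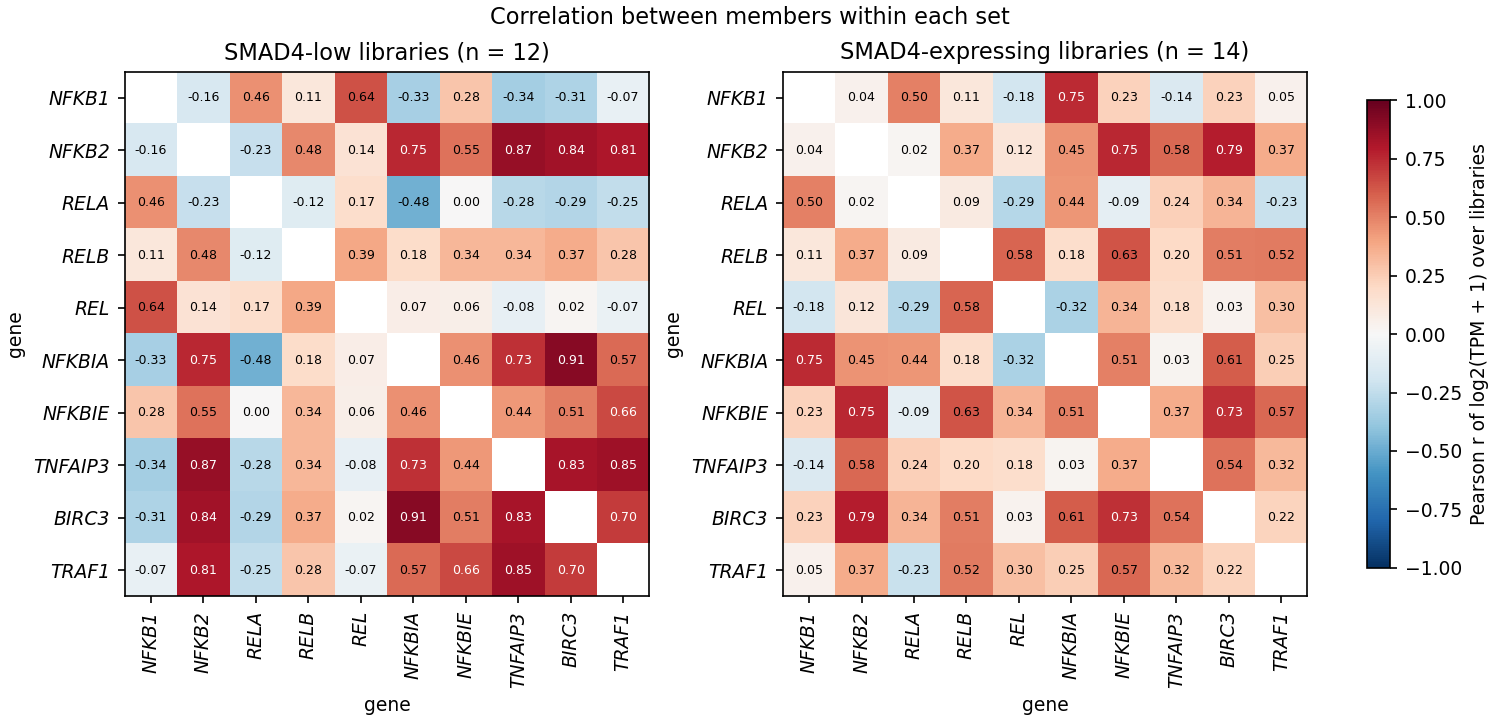
Pearson r of log2(TPM + 1) for each pair of the 10 genes over the 12 SMAD4-low (left) and 14 SMAD4-expressing libraries (right), from blue at -1 to red at 1. The block of high values among NFKB2, NFKBIA, TNFAIP3, BIRC3 and TRAF1 on the left reaches 0.907, while RELA and NFKB1 have negative values with NFKBIA, TNFAIP3, BIRC3 and TRAF1.

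The listed target genes ran with the feedback genes and not with the subunits RELA, NFKB1 and REL in the SMAD4-low libraries. Of 26 target genes expressed there, 25 had a positive r with BIRC3, and 21 of them had an unadjusted permutation p under 0.05, against 11.2% of all genes. Their median r was 0.833, where the median over all genes was -0.010. The counts were the same for TNFAIP3, with 25 positive, 21 at that level (9.05% of all genes) and a median r of 0.775, and for NFKBIA, with 25, 21 (10.5%) and 0.767. With NFKB2, 26 of 26 were positive, 17 of them at that level (8.93%), with a median r of 0.656. CXCL8, a neutrophil chemokine, had r = 0.919 with BIRC3, and SOD2, a mitochondrial superoxide dismutase, had r = 0.929 with NFKBIA.

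With RELA, only 2 of the 26 target genes had a positive r, and the median was -0.503 where that of all genes was 0.152. With NFKB1, 2 were positive and the median was -0.466 against 0.218 over all genes, and with REL 4 were positive and the median was -0.153. RELB and NFKBIE lay between, with 22 and 25 positive and medians of 0.174 and 0.277, and 0 and 1 of them at an unadjusted p under 0.05. The target genes are not independent of each other, and these counts are a description over 12 libraries. They were not repeated within the labels or with the library total regressed out. Among these libraries, 26 listed targets had a median log2 fold change of -0.573 in the label Panc1 against BxPC3. That of all genes was 0.006, and no listed target was called. The part of the label and of the library total in the counts was not tested.

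In the SMAD4-expressing libraries, 17 target genes were expressed, and the counts differed between the feedback genes. With BIRC3, 9 of 17 had a positive r, 1 of them at an unadjusted permutation p under 0.05 (2.47% of all genes), and the median r was 0.026. With TNFAIP3, 8 were positive and the median was -0.053. NFKBIA had 11 positive and a median of 0.205, and TRAF1 had 16 positive, 2 of them at that level (2.53% of all genes), and the highest median of the group, 0.327. NFKBIE had the most at that level, with 15 positive and 4 of them past it (2.17% of all genes), among them SDC4, a syndecan (r = 0.667). Whether the sets differ in these relations was not tested, and many chemokines of the list were too low in the SMAD4-expressing libraries to be included.

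**Figure D4:**
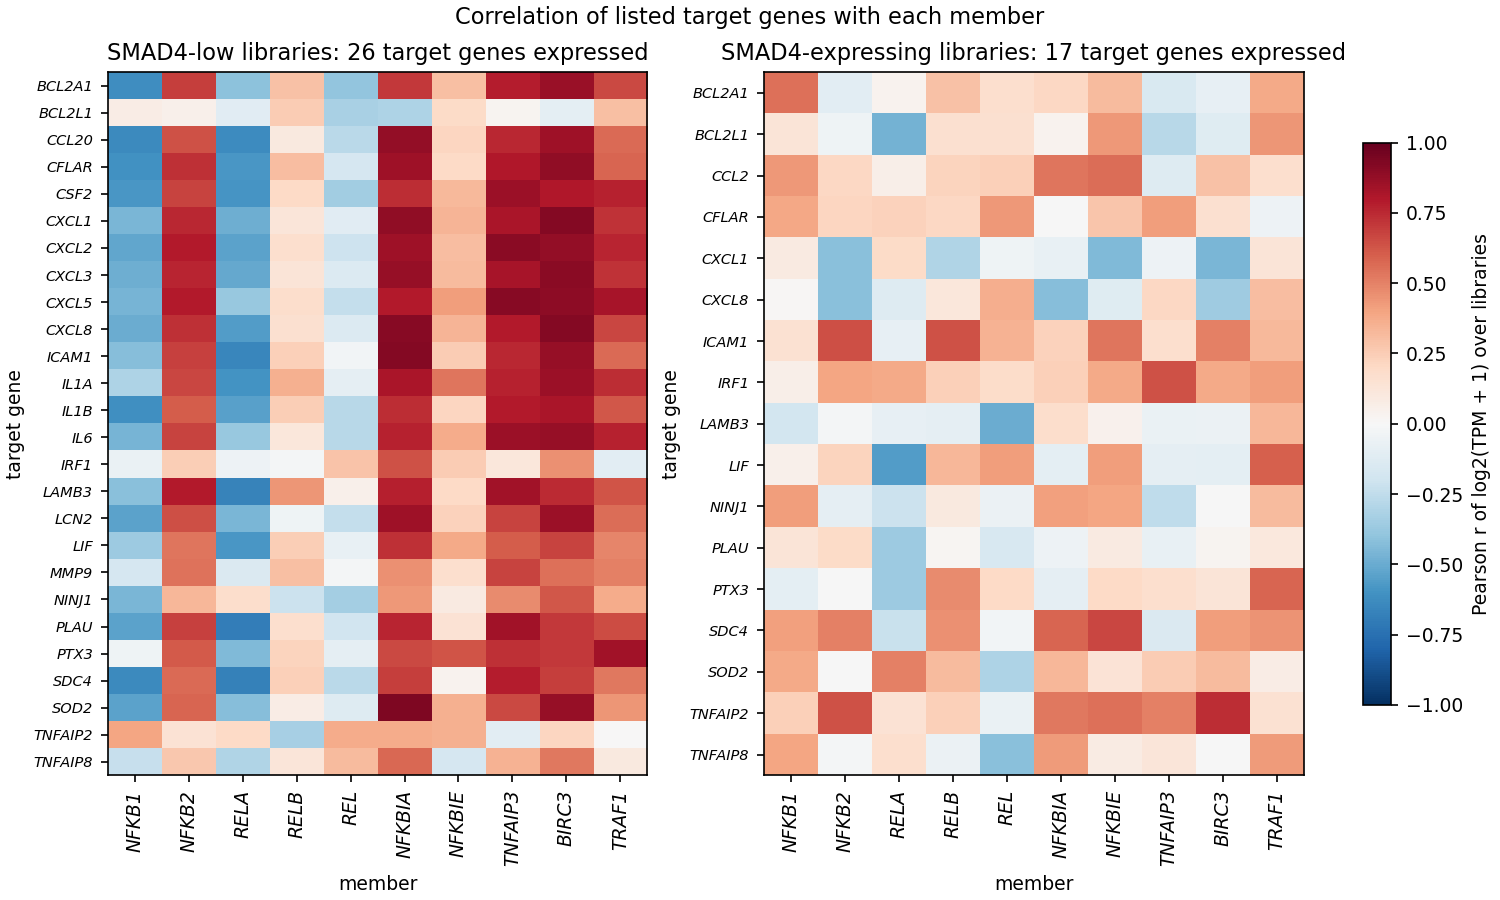
Pearson r of log2(TPM + 1) of each expressed target gene (rows) with each of the 10 genes (columns) in the SMAD4-low libraries (left, 26 targets) and the SMAD4-expressing libraries (right, 17 targets). On the left the columns of NFKB2, NFKBIA, TNFAIP3, BIRC3 and TRAF1 are mostly red and those of NFKB1 and RELA mostly blue, and on the right the median r of a column is at most 0.327.

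Among the 14 SMAD4-expressing libraries, the closest pairs joined NFKB2, NFKBIE and BIRC3. NFKB2 and BIRC3 had r = 0.786 and rho = 0.846 (permutation p = 0.00095 and 0.00035), NFKB2 and NFKBIE r = 0.753 and rho = 0.807 (permutation p = 0.00188 and 0.00091), and NFKBIE and BIRC3 r = 0.727 and rho = 0.763 (permutation p = 0.00316 and 0.00254). Adjusted over 138250 relations, these p-values of r were 0.567, 0.579 and 0.613. Library B22 had the highest NFKB2 and NFKBIE (152.6 and 37.2 TPM) with BIRC3 at 70.3 TPM, and library B13, which had the lowest BIRC3 and NFKBIE (12.6 and 12.1 TPM), had NFKB2 at 65.3 TPM. Of the 45 pairs, 10 had a positive r at an unadjusted permutation p under 0.05, against 3.31% of all relations, and no pair had a negative r at that level.

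NFKB1 and NFKBIA had r = 0.746 and rho = 0.657 in the SMAD4-expressing libraries (permutation p = 0.00187 and 0.0125, adjusted p of r 0.579) and r = -0.328 in the SMAD4-low libraries (permutation p = 0.304). The value in the SMAD4-expressing libraries was 0.601 without B11 and B19 and 0.587 without B19 alone, the library with the highest NFKB1 (19.6 TPM) and NFKBIA (140.4 TPM) of the set. Some pairs rested on 2 libraries. RELB and NFKBIE went from r = 0.629 to 0.203, NFKBIE and TRAF1 from 0.573 to 0.206, and RELB and REL from 0.582 to 0.235 without B19 and B22. Without B22 alone, RELB and REL had r = 0.375 and NFKBIE and TRAF1 r = 0.353. RELB also ran with the library total in this set (r = 0.638, rho = 0.754, permutation p = 0.0144 and 0.00269, adjusted p of r 0.162).

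The genes closest to each member in pattern differed between the sets. In the SMAD4-low libraries NFKBIA was followed most closely by ZC3H12A (r = 0.978), an RNase that degrades cytokine messages, then by the complement gene CFB (0.961) and the interferon-inducible GBP2 (0.960). BIRC3 was followed by C1S (0.953), ZC3H12C (0.939) and NFE2L3 (0.935), and TNFAIP3 by the chemokines CXCL5 (0.912) and CXCL2 (0.899) and by the cholesterol transporter ABCA1 (0.892). In the SMAD4-expressing libraries NFKB2 was followed by ITGAM (0.837), TRIM16 (0.812) and its upstream kinase MAP3K14 (0.805). TRIM16 was also among the closest 3 genes of BIRC3 (0.896) and of NFKBIE (0.864), the latter led by TRIM16L (0.924), which resembles TRIM16 in sequence, so that reads may be shared between them. These genes are the highest of 14374 and 13825 genes for each member in the sets, and a high r is partly a result of that choice.

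RELA in the SMAD4-expressing libraries was followed by its neighbours on the chromosome. KAT5 (r = 0.966, chromosome 11, 65711996 to 65719604), ZFPL1 (0.963, 65084210 to 65088398) and HNRNPUL2 (0.943, 62712630 to 62727457) were the closest 3 genes, and 40 of the closest 50 lay on chromosome 11, which held 5.64% of the genes compared. Of 71 expressed genes within 1 Mb of RELA, 68 had a positive r, with a median of 0.626, against a median of -0.008 over all genes. The median was 0.624 for the 136 genes between 1 and 5 Mb away, 0.435 for the 134 between 5 and 20 Mb and 0.337 for the 387 farther away. In the SMAD4-low libraries the median within 1 Mb was 0.222 over 74 genes, against 0.152 over all genes (0.0874 and 0.0244 without B26), and 5 of the closest 50 genes lay on chromosome 11.

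Library B18 had the lowest RELA of all libraries (54.7 TPM), and only 4 of the 71 neighbouring genes were above their own median of the set, with a median deviation of -0.66 in log2(TPM + 1). Library B19 had the highest RELA (119.0 TPM), and 56 of the 71 were above their median, with a median deviation of 0.08. Without B18 the median r within 1 Mb was 0.403, and 27 of the closest 50 genes lay on chromosome 11. Leaving out any other library of the set gave a median between 0.616 and 0.659. The next highest share in the group was that of REL, with 10 of 50 on chromosome 2 in the SMAD4-expressing libraries, where 6.49% of genes lay. DNA copy number was not measured here. This pattern was looked for after the closest genes were seen.

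**Figure D5:**
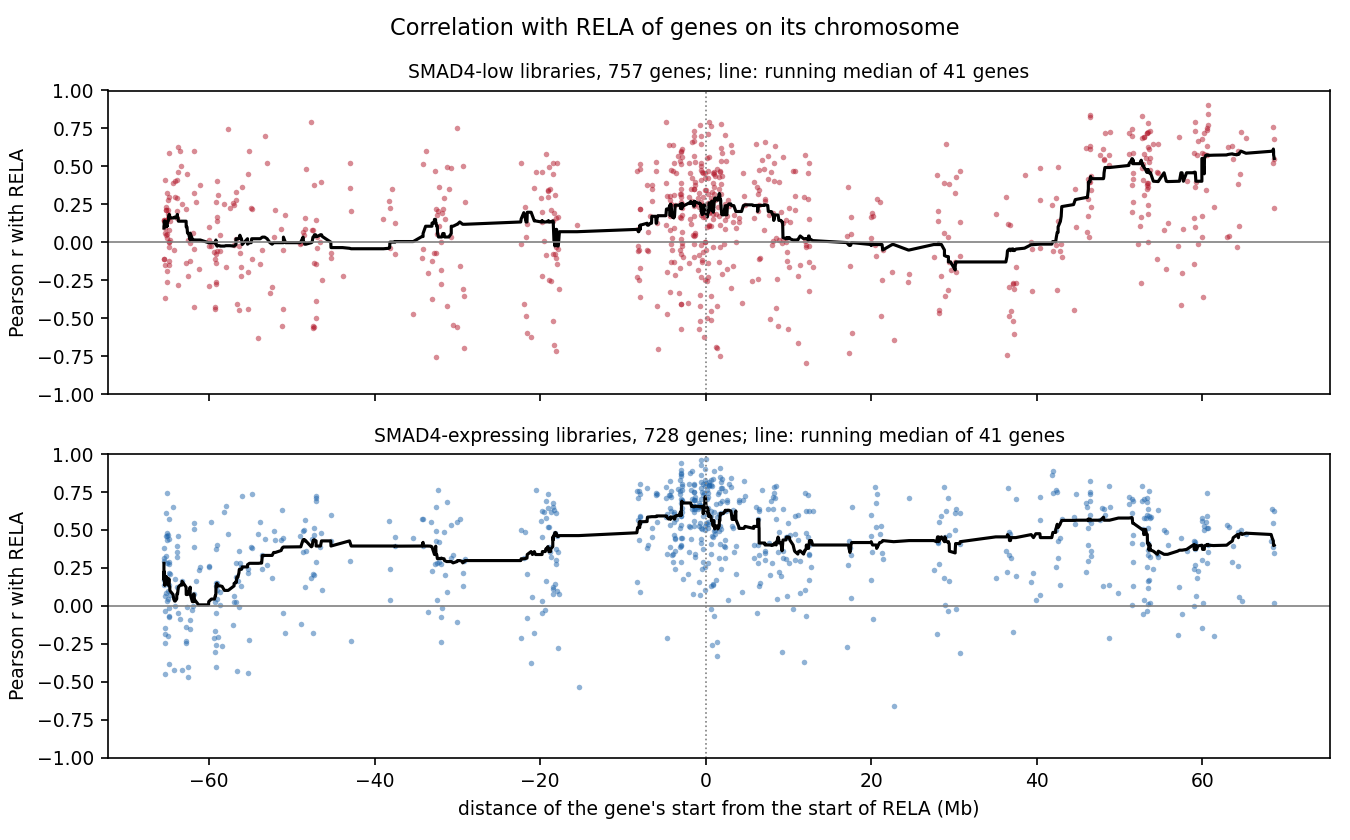
Pearson r with RELA of every expressed gene of its chromosome against the distance of its start from that of RELA in Mb, for the SMAD4-low (top) and SMAD4-expressing libraries (bottom), with a running median as a black line. In the SMAD4-expressing libraries the points within 1 Mb center on 0.626 and 68 of 71 are above 0, while those of the SMAD4-low libraries center on 0.222.

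BIRC3 lies on the same chromosome arm beside BIRC2, a related ubiquitin ligase gene. In the SMAD4-expressing libraries 8 of 9 expressed genes within 1 Mb of BIRC3 had a positive r, and BIRC2 had r = 0.812. Their median was 0.425, against -0.068 over all genes and 0.188 over chromosome 11. In the SMAD4-low libraries 9 of 13 had a positive r. Their median was 0.373, against -0.010 over all genes and -0.051 over chromosome 11, and r with BIRC2 was 0.373. The 5 matrix metalloproteinase genes expressed there within 1 Mb ranged from MMP10 (r = 0.157) and MMP1 (0.387) through MMP3 (0.680) and MMP13 (0.723) to MMP7 (0.890).

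Between the labels, no gene of the group passed the test. Over all 26 libraries edgeR's quasi-likelihood test called 0% of 16008 genes at an adjusted p under 0.05 and a log2 fold change over 1. It had 367 genes and none of the 10 at an unadjusted p under 0.05. limma called 0 genes and DESeq2 2, neither in the group. Each label held libraries of both SMAD4 sets. With the set as a covariate, edgeR's test again called 0 genes, with 1204 genes and 2 of the 10 at an unadjusted p under 0.05. Among the SMAD4-low libraries it called 0% of 16124 genes (1840 at an unadjusted p under 0.05). There NFKBIA had a log2 fold change of -0.59 ± 0.21 (SE) in the 7 libraries labelled Panc1 against the 5 labelled BxPC3 (edgeR, p = 0.0134, adjusted p = 0.405), with medians of 90.5 and 153.2 TPM, and RELA had 0.23 (p = 0.0245, adjusted p = 0.409). Among the SMAD4-expressing libraries it called 0% of 15161 genes (700 at an unadjusted p under 0.05), and REL had -0.34 ± 0.095 (SE, edgeR, p = 0.00276, adjusted p = 0.982), at 4.26 to 5.97 TPM in the 7 libraries labelled Panc1 and 5.77 to 7.95 TPM in the 7 labelled BxPC3. The difference between the labels did not pass the test for a change between the sets for any of the 10 genes (0% of 16008 genes called), the smallest p being that of NFKBIA (edgeR, p = 0.0250, adjusted p = 0.604). With SMAD4 at odds with the labels, these values compare labels and not lines.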

How the data were processed

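Polyadenylated, strand-specific libraries of 26 SCDCLs were sequenced in pairs. The authors quantified them with kallisto 0.46.1 on Ensembl transcripts (GRCh38) and deposited TPM and estimated counts (expected counts, length-scaled by tximport) per gene, with 30 resamples of the reads per library. Genes were matched to symbols and positions in GENCODE 44 (36315 of 41078) and promoter windows were taken from RefSeq GRCh38.p14, where RELB and NFKBIE had none in the table used. Libraries carry 27035724 to 34945608 estimated counts, with 15976 to 17641 genes at 5 or more counts. The closest pair of libraries differed by a chi-square of 40.3 per degree of freedom, so none was counted as a copy. Each SCDCL was expanded from its own well and sequenced once, so p-values measure the spread between SCDCLs, with no replicate culture of any.

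The genes of the group, the lists, the κB consensus and the ratios were chosen with earlier results of these data known. Named genes were the 10 members, the check genes SMAD4, VIM, CDH1, KRT8 and EPCAM, list genes without overlap and the largest differences, and the 3 genes with the highest r for each member and set. KRT18, KRT19, CDH2, CD40, CXCL8, SOD2, SDC4, BIRC2 and the MMP genes were named after their values were seen.

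Libraries were divided at a SMAD4 TPM of 1. Correlations used log2(TPM + 1) within each set, genes with a mean of at least 1 TPM, 100000 permutations and Benjamini-Hochberg adjustment over all members and genes, so the smallest p is 1e-05. Labels were compared with edgeR 4.0.16 (quasi-likelihood, TMM, filterByExpr, rounded estimated counts), with limma 3.58.1 and DESeq2 1.42.0 as alternatives, in R 4.3.3 and Python 3.11.15 (numpy 2.4.6, scipy 1.17.1). The edgeR and correlation steps were tested on simulated data. For the labels over all libraries the simulated spread between libraries was capped, so that run does not show what the test can find in these data.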

Additional observations from a re-analysis of the deposited data

Results flagged for a closer look

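Within each combination of label and set, 5 of 40 groups of 5 or 7 libraries had a highest value of a gene of the group far from the others by Dixon's ratio, which about 1 in 20 groups would give by chance. NFKB2 was at 110.2 TPM in library B4 where the next of the 7 SMAD4-low libraries labelled Panc1 had 61.0 TPM, and TRAF1 was at 5.29 TPM in B16 where the next of the 5 SMAD4-low libraries labelled BxPC3 had 2.88 TPM. RELA was at 94.5 TPM in B5 where the next of the 7 SMAD4-low libraries labelled Panc1 had 83.8 TPM. NFKB1 was at 19.6 TPM in B19 and REL at 7.95 TPM in B22, where the next of the 7 SMAD4-expressing libraries labelled BxPC3 had 15.6 and 6.68 TPM.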

How the results depend on the processing

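NFKB1 was the only gene of the group without overlap between the sets on TPM, on CPM after TMM or RLE scaling, at a SMAD4 limit of 10 TPM and with backgrounds of a mean of 5 TPM or no filter, while the share of all genes without overlap moved from 30.6% to between 17.3% (no filter) and 32.6%. The direction of each of the 10 ratios of set medians was kept under both scalings. No gene of the group was called between the labels under any alternative, leaving out each library in turn included, where the counts of called members stayed at 0 to 0. DESeq2 called 2 genes between the labels over all libraries where edgeR called 0, and 15 and 1 within the SMAD4-low and SMAD4-expressing libraries, none of them in the group. No pair of the group passed an adjusted p of 0.05 under any setting of the correlation. On log2(TPM + 1) the closest pairs had a p above the smallest that the permutations can give. Their adjusted p was thus set by their own p and its rank among all relations. A count of 0 under every setting says nothing about the stability of r. None of the 21 pairs at an unadjusted p under 0.05 changed sign in 210 alternative values. With the library total regressed out, an alternative chosen after the data were seen, 346 of 143740 relations passed in the SMAD4-low libraries, with 39 at the smallest p that 100000 permutations can give against 19 without it. Adjusted p-values near the threshold therefore depend on how many relations reach that smallest p. In each set 6 to 8 of the 10 genes varied more than the median gene under other pseudocounts, CPM or the median absolute deviation. No paired analysis was possible because the labels number each SCDCL once and pair none of them. At the smallest p, 29 and 28 relations were needed in the sets and 19 and 1 reached it, so strong relations could fail too.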
